A study of Mus musculus with 8 samples.

Results

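Transcripts of 10 ubiquitin ligase genes linked to muscle wasting were followed in C2C12 cells. The genes were chosen by name: Fbxo32, Trim63, Fbxo30, Fbxo21, Fbxo31, Fbxo40, Traf6, Cblb, Nedd4 and Stub1. All 10 are among the 21879 genes of the deposited expression table. Of these, 8 had a mean of at least 1 FPKM (fragments per kilobase of gene length, scaled to library size) and entered the test, and Trim63 and Fbxo40 did not. C2C12 cells are mouse myoblasts, grown as a line, which leave the cell cycle and form myotubes in low serum. All 8 libraries carry the label of muscle differentiation. In 4 the cells had been given siNC, a control siRNA, and in 4 an siRNA against Fam129b, a cytoplasmic protein of the Niban family (siFam129b). The siRNAs were delivered by lipid transfection, and neither the time in differentiation medium nor the source of the 4 libraries of a group (separate cultures or not) is stated in the labels. The p-values below therefore cover the spread between libraries, which may be technical. The series was made to study Fam129b in the control of muscle atrophy, and the question here is whether these ligase transcripts differ after its knockdown.

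Ubiquitin is attached to proteins by a relay of an activating enzyme (E1), a conjugating enzyme (E2) and a ligase (E3), and it is the ligase that selects the substrate. In wasting muscle, FoxO transcription factors and other regulators raise a small set of ligases, and the proteins these mark are degraded by the proteasome or in lysosomes. Fbxo32 (atrogin-1) and Trim63 (MuRF1) are the classical markers of that programme. The set spans 4 ligase classes. The F-box proteins work as the substrate-binding part of SCF complexes built on the scaffold Cul1, the RING proteins bring E2 and substrate together, the HECT protein Nedd4 carries ubiquitin itself, and the U-box protein Stub1 (CHIP) acts with chaperones.

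The whole reads recovered from the FPKM values came to between 31466869 and 36031688 per library. Fam129b itself stood at 168 ± 11.6 FPKM (SD, n = 4) in siNC. The siFam129b group held 58.8% of that level, 98.5 ± 19.9 FPKM (SD, n = 4), with no overlap (exact two-sided permutation p = 0.0286, the lowest value possible for 2 groups of 4). In limma over all genes its adjusted p was 0.784 with all libraries and 0.00176 without siFam129b library 4. In such bulk RNA, fewer cells with a transcript and less of it per cell cannot be told apart. The myoblast markers Des and Myod1 lay at 172 to 290 and 26.9 to 41.3 FPKM across the libraries. Myf5 lay at 4.5 to 16.7 FPKM and Pax7 at 1.03 to 1.46 FPKM. Of these 4 markers, 2 lay above 0 and 2 below in siFam129b minus siNC, and 0 were called. Without siFam129b library 4 the count was 1 above and 3 below. Of the muscle differentiation markers, Tnnt2 lay at 31.5 to 60.9, Acta1 at 2.00 to 10.5, Tmem8c (myomaker) at 3.90 to 8.93 and Myh3 at 0.230 to 2.55 FPKM, Ckm reached at most 0.984 FPKM and Myh8 was listed at 0. The list holds 8 such markers, of which 5 were tested: 1 lay above 0 and 4 below in siFam129b minus siNC, and 0 were called. In limma 2 of the 5 (Myog and Tmem8c) had an unadjusted p under 0.05, beside 2.49% of all tested genes. Without siFam129b library 4 it was 1 (Tmem8c), beside 4.31%. The median log2 difference of the 5 was -0.48 beside 0.0032 over all tested genes, and -0.51 without siFam129b library 4. The proliferation markers Mki67 and Top2a lay at 66.6 to 90.4 and 132 to 165 FPKM across the libraries. Ccnb1 lay at 79.7 to 96.6 FPKM and Mcm5 at 47.9 to 84.7 FPKM. Of these 4 markers, 1 lay above 0 and 3 below, and 0 and 4 without siFam129b library 4, with 0 called. The part of differentiation or proliferation in the ligase results was not tested. Markers of blood, endothelium, epithelium and fat (Ptprc, Pecam1, Epcam and Adipoq) were at most 0.0524 FPKM, and the neuronal tubulin Tubb3 was at 53.7 to 93.7 FPKM. siFam129b library 4 stood apart. It lay outside the range of the other 7 libraries for 77.6% of the 11025 tested genes, below it for 37.7% and above it for 39.9%, against 10.6 to 31.7% for each other library. Of the 8 tested ligase genes 7 lay outside, 5 below and 2 above, a share near that of all genes. The ligase results are therefore given with and without it.

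None of the 8 tested ligase genes passed the test for a difference between the groups. In limma on log2(FPKM + 1), 0 of the 8 had an adjusted p under 0.05, where the share over all tested genes was 0.0%. At an unadjusted p under 0.05 the count was 0 of 8, where the share over all genes was 2.49%, and voom on the recovered reads also called 0 of the 8 and found 0 at an unadjusted p under 0.05. With all 8 libraries, 5 of the 8 had a lower mean with siFam129b and 3 a higher mean, with a median log2 difference of -0.12 beside 0.0032 over all tested genes. With siFam129b library 4 left out, 2 lay below 0 and 6 above, with a median of 0.019, and 0 of the 8 were called (smallest adjusted p = 0.874 in limma), where the share over all genes was 0.00907%. At an unadjusted p under 0.05 the count was then 0 of 8, beside 4.31% of all genes. For each of the 8 the ranges of the groups overlapped, also without that library, where 3.37% and 5.83% of all tested genes had ranges that did not.

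**Figure D1:**
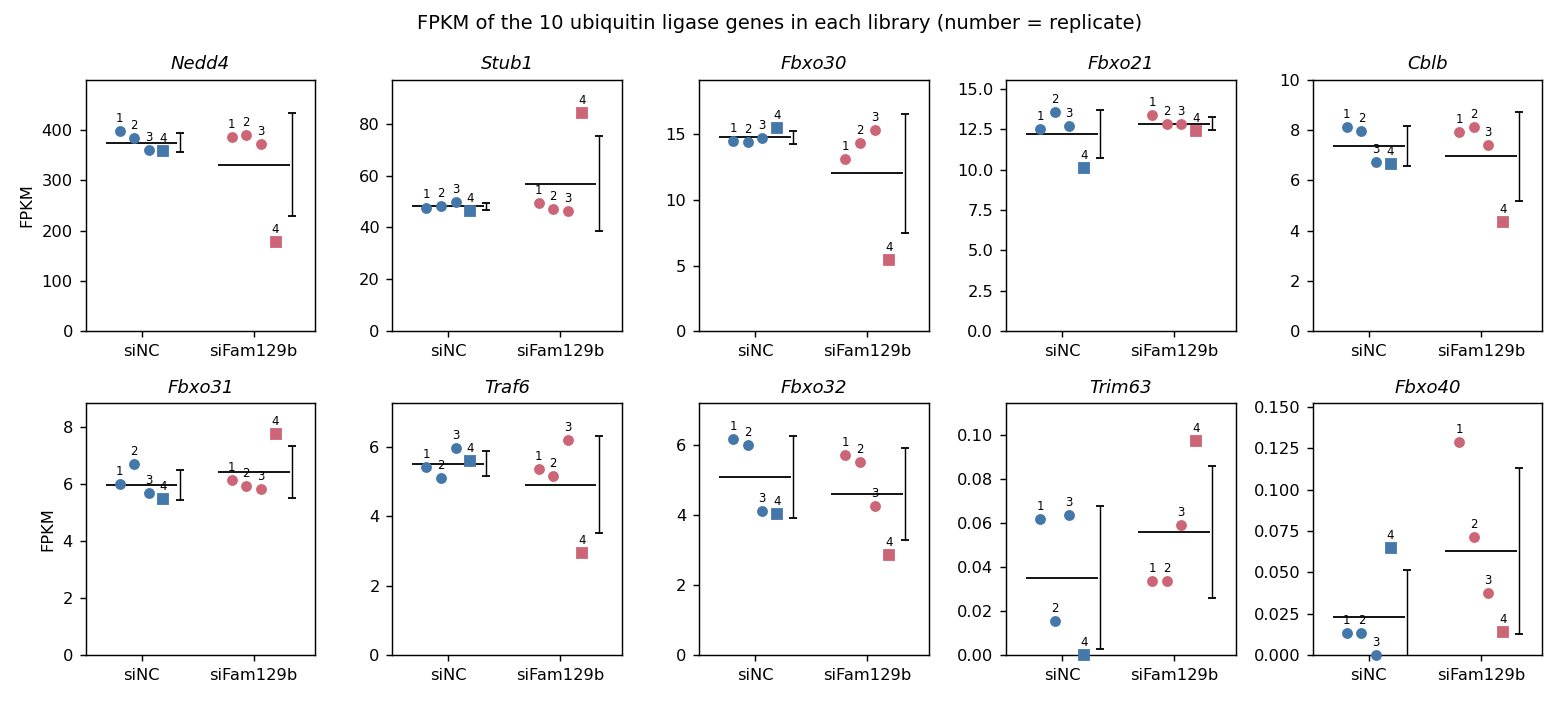
FPKM (vertical axis, from 0, a separate scale for each gene) of the 10 ligase genes in the 4 siNC and 4 siFam129b libraries, ordered by siNC level. Points are libraries with their replicate number, squares are replicate 4 of each group, lines are means and bars are SD; siFam129b library 4 lies away from the other libraries for 7 of the 8 tested genes, below them for 5 and above them for 2.

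Levels in siNC spanned from 375 FPKM for Nedd4 to 0.0226 FPKM for Fbxo40. Stub1 came next at 48.1 FPKM. By the mean over all 8 libraries, Nedd4 stood higher than 98.7% of all tested genes and Stub1 higher than 86.3%. In siNC, Fbxo30 followed at 14.8 FPKM and Fbxo21 at 12.3 FPKM, and their 4 siNC values did not overlap. Cblb, Fbxo31, Traf6 and Fbxo32 lay between 7.37 and 5.08 FPKM, and in that order the siNC values of each overlapped those of the next, so these 4 neighbours are not ranked. Trim63 and Fbxo40 came last, at 0.0351 and 0.0226 FPKM, and their values also overlapped. FPKM is per length, so these levels can be set side by side.

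Fbxo32 encodes atrogin-1, the F-box protein whose known substrates include MyoD and the translation factor eIF3f. In the siNC libraries 1 to 4 it was at 6.16, 6.00, 4.10 and 4.03 FPKM. In the siFam129b libraries 1 to 4 it was at 5.70, 5.50, 4.25 and 2.86 FPKM. Replicates 1 and 2 of both groups were thus high and replicates 3 and 4 of both groups low, and the groups overlapped. The log2 difference was -0.14 ± 0.20 (SE; adjusted p = 0.823 in limma), with a 95% interval of -0.59 to 0.32. Without siFam129b library 4 it was 0.03, with an interval of -0.33 to 0.39. In replicates 1 and 2 alone both siFam129b values lay below both siNC values, with a log2 difference of -0.10 ± 0.09 (SE; adjusted p = 0.696). In replicates 3 and 4 alone it was -0.17 ± 0.23 (SE; adjusted p = 0.831). The siNC libraries differed among themselves by more than the groups did: replicates 1 and 2 averaged 6.08 FPKM and replicates 3 and 4 averaged 4.07 FPKM. The labels name no batch for these numbers.

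Some regulators and relatives of Fbxo32 had the same split by replicate number. Foxo3, a FoxO factor known to activate Fbxo32, averaged 22.6 FPKM in siNC replicates 1 and 2 and 16.1 FPKM in 3 and 4. With siFam129b, libraries 1 to 4 held 24.2, 23.6, 17.4 and 12.9 FPKM of Foxo3. Trim55 (MuRF2), a paralog of Trim63, averaged 12.5 and 7.28 FPKM in the same siNC pairs. Myog, which drives terminal differentiation and is known to act on Fbxo32 and Trim63 in denervated muscle, averaged 14.1 and 5.86 FPKM there. Others did not share the split: Trim54 averaged 5.08 and 5.35 FPKM in these siNC pairs, and Trim32 13.1 and 13.6 FPKM. Foxo1, at 5.2 and 4.72 FPKM, and Nr3c1, at 26.5 and 24.5 FPKM, differed less between the pairs. How many of all tested genes had such a split was not counted. In siFam129b, Myog libraries 1 to 4 held 6.80, 6.77, 2.10 and 2.58 FPKM, while Fbxo32 in siFam129b replicates 1 and 2 averaged 5.60 FPKM beside 6.08 FPKM in siNC. Foxo3 and Trim55 did not pass the test (unadjusted p = 0.975 and 0.435). Myog had an unadjusted p of 0.0432 and was not called in the same fit (log2 difference -0.98 ± 0.42, SE; adjusted p = 0.784 in limma). Within replicates 1 and 2 alone Myog was lower with siFam129b and was called, at -0.96 ± 0.07 (SE; adjusted p = 0.000784). It was also called with the split as a covariate and siFam129b library 4 left out, at -1.02 ± 0.13 (SE; adjusted p = 0.0227). In replicates 3 and 4 alone it was not called (adjusted p = 0.83), and both siFam129b values lay below both siNC values, 7.51 and 4.21 FPKM. Of the 8 tested ligase genes 0 were called in each of these fits, where the share over all genes was 0.0907% in replicates 1 and 2 alone, 0.0454% with the covariate and 0.0% in replicates 3 and 4 alone. The pairs of replicates were set by replicate number after such a split was known, so these values are a description.

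**Figure D2:**
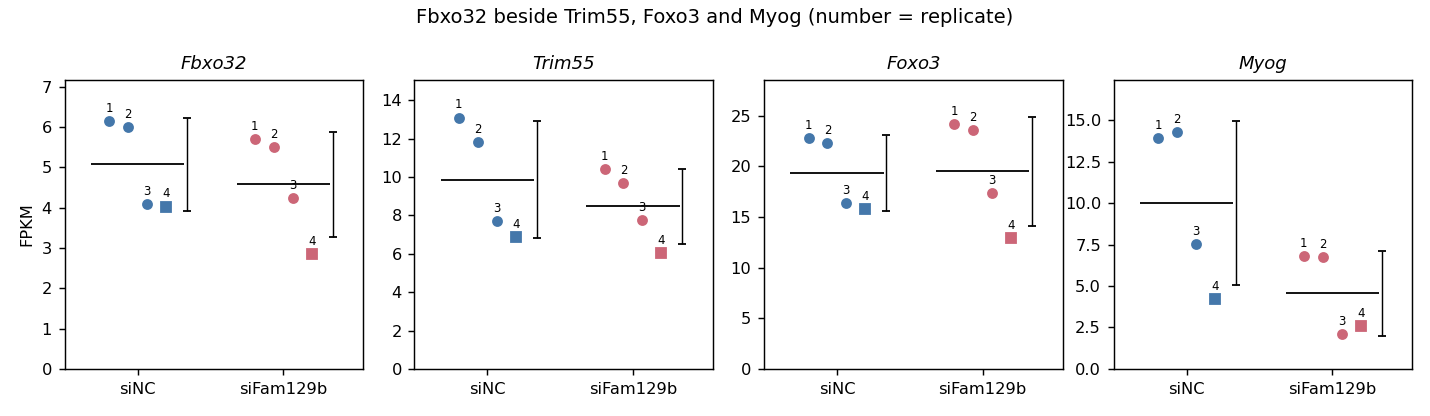
FPKM (vertical axis, from 0) of Fbxo32, Trim55, Foxo3 and Myog in each library, with replicate numbers, means (lines) and SD (bars). In siNC, replicates 1 and 2 lie above replicates 3 and 4 for all 4 genes, and Fbxo32 averages 6.08 FPKM in the first pair and 4.07 FPKM in the second.

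Fbxo30 (MUSA1), an F-box protein known from mouse muscle as a ligase restrained by BMP signalling, had the widest range of the 8 on the log2 scale. The siNC libraries held 14.5, 14.4, 14.7 and 15.5 FPKM. The siFam129b libraries 1 to 4 held 13.1, 14.3, 15.3 and 5.39 FPKM. Libraries 1 and 2 lay below the siNC range, library 3 inside it, and library 4 was at 36.5% of the siNC mean. The log2 difference was -0.36 ± 0.26 (SE; adjusted p = 0.784), and without library 4 it was -0.05, with a 95% interval of -0.20 to 0.10. In reads, library 4 held 839 of Fbxo30, where the other 7 libraries held 1959 to 2622.

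Fbxo21 (SMART), reported in mouse muscle as a ligase induced during atrophy, had the narrowest range of the 8 on the log2 scale. It lay at 12.5, 13.6, 12.7 and 10.1 FPKM in siNC and at 13.4, 12.8, 12.8 and 12.4 FPKM in siFam129b. The siFam129b libraries sat inside the siNC range, library 4 included. The log2 difference was 0.07 ± 0.10 (SE; adjusted p = 0.823), and 0.09 without library 4 (95% interval -0.12 to 0.30). Its spread over the 8 libraries was larger than that of 18.3% of tested genes.

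Fbxo31, an F-box protein known to target cyclin D1, was at 5.99, 6.68, 5.68 and 5.45 FPKM in siNC. In siFam129b it was at 6.14, 5.92, 5.81 and 7.75 FPKM. Here library 4 was the highest of all 8, at 130% of the siNC mean. The difference was 0.09 ± 0.11 (SE; adjusted p = 0.805) with that library and 0.00 without it (95% interval -0.17 to 0.18).

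Trim63 and Fbxo40 were near the floor of the assay. Trim63, the RING ligase MuRF1 of the sarcomere, was covered by 4, 1, 4 and 0 reads in siNC and by 2, 2, 4 and 6 reads in siFam129b, which correspond to at most 0.0971 FPKM. Fbxo40, a muscle-restricted F-box protein known to target the insulin receptor substrate Irs1, was covered by 1, 1, 0 and 5 reads in siNC and by 9, 5, 3 and 1 in siFam129b. For both genes the libraries of the groups overlapped. A count of 0 allows up to 3 reads, which is 0.0455 FPKM for Trim63 in siNC library 4 and 0.0405 FPKM for Fbxo40 in siNC library 3; such limits cover counting error only. With no low-value filter neither passed (adjusted p = 0.83 for each in limma). The 95% intervals of the difference were -0.04 to 0.09 for Trim63 and -0.03 to 0.14 for Fbxo40 on the log2(FPKM + 1) scale, which compresses differences of genes this low.

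The upstream windows of these low genes are shown beside those of the most abundant members, Nedd4 and Stub1, because their base composition differed. The sequences are from RefSeq, build GRCm38.p6, and cover the 250 bases before an annotated start, 5′ to 3′ on the gene's strand. Capitals mark GTAAACA (the FoxO word), CANNTG (E-box, the word read by MyoD-type factors) and TATAAA (core of the TATA box), searched on both strands; no 2 matches overlap.
Trim63, chr4:134314870-134315119, plus strand: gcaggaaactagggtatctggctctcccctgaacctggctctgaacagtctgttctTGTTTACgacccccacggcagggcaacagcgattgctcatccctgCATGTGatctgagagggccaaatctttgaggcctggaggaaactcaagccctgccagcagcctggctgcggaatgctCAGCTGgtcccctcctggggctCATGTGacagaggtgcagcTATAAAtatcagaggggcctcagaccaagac
Fbxo40, chr16:36990468-36990717, minus strand: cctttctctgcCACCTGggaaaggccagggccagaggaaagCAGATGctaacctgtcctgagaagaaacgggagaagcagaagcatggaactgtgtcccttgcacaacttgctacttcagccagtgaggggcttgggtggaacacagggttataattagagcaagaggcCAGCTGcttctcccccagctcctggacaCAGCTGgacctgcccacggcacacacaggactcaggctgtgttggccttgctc
Nedd4, chr9:72662081-72662330, plus strand: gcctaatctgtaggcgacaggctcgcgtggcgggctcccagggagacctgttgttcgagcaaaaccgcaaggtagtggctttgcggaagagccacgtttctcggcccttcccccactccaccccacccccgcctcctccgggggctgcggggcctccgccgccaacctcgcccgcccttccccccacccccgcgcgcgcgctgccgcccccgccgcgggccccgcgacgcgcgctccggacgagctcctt
Stub1, chr17:25832920-25833169, minus strand: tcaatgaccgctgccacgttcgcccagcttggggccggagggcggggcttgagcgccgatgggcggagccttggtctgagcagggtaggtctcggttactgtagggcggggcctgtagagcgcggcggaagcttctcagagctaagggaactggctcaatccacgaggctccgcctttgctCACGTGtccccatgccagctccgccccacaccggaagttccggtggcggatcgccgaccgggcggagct
The Trim63 window held 4 CpG dinucleotides, 1 FoxO word (TGTTTAC on the strand shown, starting 194 bases before the start), 3 E-boxes and a TATA box starting 31 bases before the start. The Fbxo40 window shown held 2 CpG and 4 E-boxes, and that of a second annotated start held 2 CpG and 2 E-boxes. The Nedd4 window held 32 CpG and none of the words, and the Stub1 window 24 CpG and 1 E-box (CACGTG). The median over 32851 such mouse windows was 6 CpG. Of all windows, 3.17% held the FoxO word, 66.2% an E-box and 12.4% the TATA word. Of the members, 9 had a window in that table, with 11 windows in all, and the FoxO and TATA words occurred in that of Trim63 alone among the 11. Fbxo32 was the member without a window, so its upstream bases were not searched. A second annotated start of Nedd4 had 9 CpG and 4 E-boxes. Its window had 46.0% GC, below the 56.8% of the Trim63 and Fbxo40 windows shown, so the contrast depends on the start taken. A match is a description of letters and does not show that a factor binds.

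Traf6, a RING ligase that builds ubiquitin chains in NF-kB signalling, was at 5.42, 5.09, 5.95 and 5.60 FPKM in siNC. It was at 5.36, 5.16, 6.19 and 2.93 FPKM in siFam129b. Library 4 lay at 53.1% of the siNC mean, libraries 1 and 2 lay inside the siNC range and library 3 above it. The log2 difference was -0.17 ± 0.18 (SE; adjusted p = 0.784), and 0.01 without library 4 (95% interval -0.18 to 0.20). Its E2 partner Ube2n, at 65.7 FPKM in siNC and 62.5 FPKM in siFam129b, had a log2 difference of -0.07 ± 0.08 (SE). The kinase Map3k7 (TAK1), which acts downstream, was at 15.1 FPKM in siFam129b library 4 and at 21.8 to 24.3 FPKM in libraries 1 to 3.

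Cblb, a RING ligase known to target Irs1 in unloaded muscle, was at 8.12, 7.97, 6.74 and 6.63 FPKM in siNC. It was at 7.94, 8.12, 7.39 and 4.35 FPKM in siFam129b. As for Fbxo32, replicates 1 and 2 of siNC were above 3 and 4. The log2 difference of Cblb was -0.10 ± 0.17 (SE; adjusted p = 0.848) and 0.08 without library 4 (95% interval -0.12 to 0.28). Its paralog Cbl lay at 12.9 to 14.9 FPKM in 7 libraries and at 2.55 FPKM in siFam129b library 4. Irs1 itself lay at 29.8 FPKM in siNC and was at 14.0 FPKM in that library.

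Nedd4, the HECT ligase of the set, which acts on membrane receptors and channels, was the most abundant member. It stood at 398, 384, 360 and 357 FPKM in siNC. It stood at 385, 389, 372 and 178 FPKM in siFam129b, where libraries 1 to 3 were inside the siNC range and library 4 was the lowest of all 8. The log2 difference was -0.25 ± 0.23 (SE; adjusted p = 0.784). Without library 4 it was 0.03, with a 95% interval of -0.09 to 0.14, which with that of Stub1 was the narrowest of the 8. Between 27058 and 63599 reads covered Nedd4 in each library. Of the other Nedd4-type ligases, Itch averaged 20.1 FPKM in siNC and was at 8.65 FPKM in library 4, Wwp1 averaged 10.5 and was at 5.74 FPKM, and Nedd4l averaged 8.04 and was at 7.79 FPKM.

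Stub1 (CHIP) marks clients that chaperones fail to fold. It was at 47.7, 48.4, 49.9 and 46.4 FPKM in siNC. It was at 49.5, 47.3, 46.5 and 84.3 FPKM in siFam129b, so library 4 was at 175% of the siNC mean and the other 7 within 46.4 to 49.9 FPKM. The log2 difference was 0.19 ± 0.18 (SE; adjusted p = 0.784), and -0.01 without library 4 (95% interval -0.12 to 0.10). Its partners had the same high library: Hspa8 was at 1090 FPKM and Hsp90ab1 at 1890 FPKM in library 4, against siNC means of 664 and 1340 FPKM. The cochaperone Bag3 was at 61.9 FPKM there and 42.0 FPKM on average in siNC. Stub1 overlaps Jmjd8 on the opposite strand in the GENCODE M21 annotation, and whether reads were assigned by strand is not given in the sources used here. Jmjd8 was at 4.29 FPKM in siNC and 4.19 FPKM in library 4.

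**Figure D3:**
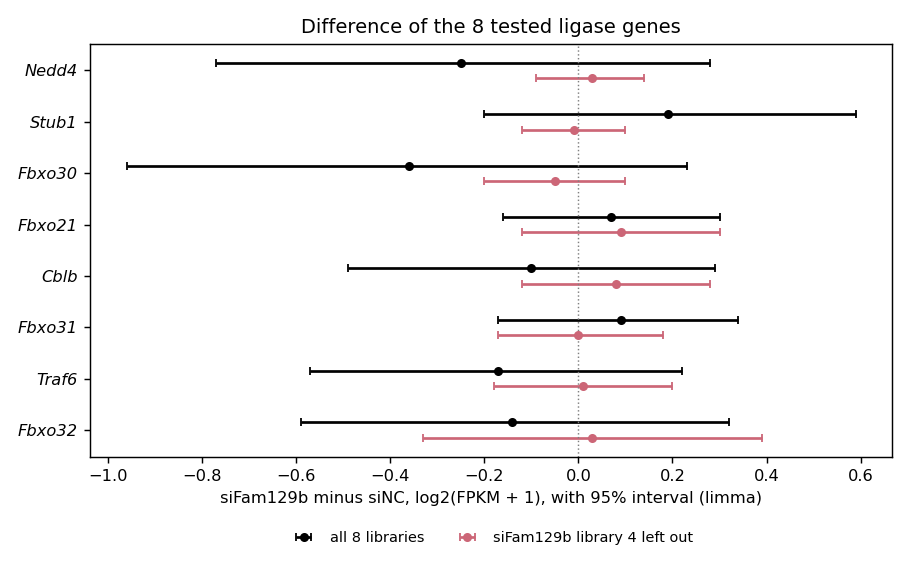
Log2(FPKM + 1) difference, siFam129b minus siNC (horizontal axis), with its 95% interval from limma, for the 8 tested ligase genes with all 8 libraries (black) and without siFam129b library 4 (red). All 16 intervals include 0, and for Fbxo30 the lower bound moves from -0.96 to -0.20 when that library is left out.

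The departure of siFam129b library 4 ran with gene length and base composition. Over all tested genes, its median difference from libraries 1 to 3 was 0.46 on the log2 scale in the shortest quintile of genes and -0.58 in the longest quintile. By transcript GC content it ran from -0.55 in the lowest quintile to 0.41 in the highest. Stub1, with an implied length of 1674 bases and 59.4% GC, was 0.81 above. Fbxo31, with 59.5% GC, was 0.33 above although its implied length of 4403 bases lies in the second longest quintile. Fbxo30 and Nedd4, in the lowest quintile by GC (40.3% and 44.2%), had log2 differences of -1.25 and -1.10. By length, Fbxo30 (4756 bases) was in the longest quintile and Nedd4 (4641 bases) in the second longest. Traf6, Cblb and Fbxo32, also in the longest quintile, had differences of -0.74, -0.72 and -0.67. Fbxo21, with 53.4% GC, had -0.06. The part that length or GC plays in these values was not tested.

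**Figure D4:**
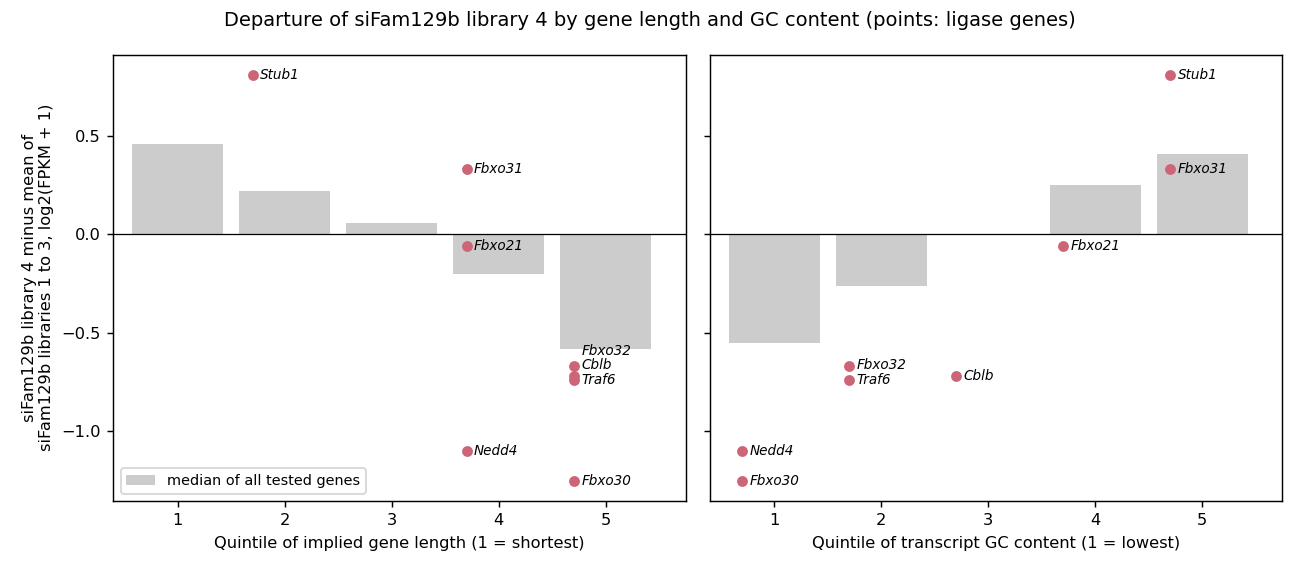
Difference of siFam129b library 4 from the mean of siFam129b libraries 1 to 3, log2(FPKM + 1) (vertical axis), by quintiles of implied gene length (left) and of transcript GC content (right). Grey bars are medians of all tested genes in a quintile, from 0.46 to -0.58 by length and from -0.55 to 0.41 by GC, and red points are the 8 ligase genes.

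The genes with the profiles nearest to those of the 3 most variable members, Fbxo30, Nedd4 and Fbxo32, were looked up. Likeness was the root mean square difference of centred log2(FPKM + 1) profiles over the 8 libraries, siFam129b library 4 included, so a shared departure there is part of how they were found. Closest to Fbxo30 were Akap11 (0.033), Mbtps2 (0.035) and Slc39a10 (0.035). Closest to Nedd4 were Smad5 (0.025), Slc35a5 (0.030) and Sptbn1 (0.031). For these 6 genes library 4 was low: Smad5 was at 10.5 FPKM there and at 23.4 FPKM on average in siFam129b libraries 1 to 3. Among those closest to Fbxo32 were Lama2 (0.035) and Cav1 (0.055), and Lama2 was at 3.87 FPKM in library 4 beside 6.86 FPKM in the other 3. The genes share their libraries and depth, and no test was made.

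In the wider ubiquitin pathway no gene was called. Of 199 other genes tested from 13 lists, 0 were called in limma, 92 lay above 0 and 107 below. An unadjusted p under 0.05 was found for 8 of the 199, beside 2.49% of all tested genes. Without siFam129b library 4, 0 were called, 82 lay above 0 and 117 below, and 9 had an unadjusted p under 0.05, beside 4.31% of all tested genes. The median log2 difference over all tested genes was 0.0032 with all libraries and 0.002 without that library. Of 33 E1 and E2 enzymes, 15 lay above 0 and 18 below, with a median of -0.01, and without library 4 the count was 12 above and 21 below; Uba1, the main E1, stood at 168 FPKM in both groups. Of 20 SCF core and neddylation genes, 8 lay above 0 and 12 below, and without library 4 the count was 3 above and 17 below. Cul1 had a log2 difference of -0.09 ± 0.09 (SE). Its exchange factor Cand1 had -0.16 ± 0.11 (SE), and -0.05 ± 0.05 (SE) without library 4. The RING subunit Rbx1 had 0.14 ± 0.14 (SE), and -0.01 ± 0.04 (SE) without library 4, with 96.4 FPKM in siFam129b library 4 and 60.6 to 63.5 FPKM in the other 7. The 5 ubiquitin and Nedd8 genes all lay above 0, with a median of 0.19, and without library 4 the count was 3 above and 2 below, with a median of 0.02. Ubb, a polyubiquitin gene, was at 636 FPKM in library 4 and at 365 to 405 FPKM in the others. Of 24 other F-box genes, 12 lay above 0 and 12 below, and 16 and 8 without library 4.

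Among 22 tested regulators upstream of the wasting ligases, 13 lay above 0 and 9 below (16 and 6 without siFam129b library 4), and 0 were called. At an unadjusted p under 0.05 in limma the count was 3, Myog among them, where the share over all genes was 2.49%. Without library 4 it was 2, where that share was 4.31%. The siNC mean of Foxo1 was 4.96 FPKM and its siFam129b mean 5.02 FPKM. For Foxo3 these means were 19.3 and 19.5 FPKM. Nr3c1, the glucocorticoid receptor, had a log2 difference of -0.31 ± 0.27 (SE) with all libraries and 0.01 ± 0.05 (SE) without library 4. Klf15, a glucocorticoid-induced factor, was below the filter, at 0.175 FPKM in siNC. Of 13 tested substrates 6 lay above 0 and 7 below, with and without library 4. Eif3f had 0.18 ± 0.13 (SE), Myod1 0.13 ± 0.13 (SE) and Ccnd1 -0.22 ± 0.14 (SE), and without library 4 these were 0.06 ± 0.06, 0.08 ± 0.13 and -0.09 ± 0.09 (SE). Of 20 deubiquitinases 6 lay above 0 and 14 below, and 4 and 16 without library 4. Usp14, which trims ubiquitin at the proteasome, had -0.16 ± 0.10 (SE), and -0.10 ± 0.07 (SE) without library 4, and Usp19 had 0.05 ± 0.07 (SE). Of 18 other ligases linked to muscle mass, 6 lay above 0 and 12 below, and 8 and 10 without library 4. Among them Ubr2 had -0.11 ± 0.12 (SE), and 0.01 ± 0.05 (SE) without library 4.

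In some lists of relatives and partners the counts above and below 0 also changed when siFam129b library 4 was left out. Of 16 chaperone partners of Stub1, 9 lay above 0 and 7 below with all libraries, and 2 above and 14 below without library 4. Of 18 Traf genes and partners the counts were 10 above and 8 below, and then 7 and 11. Of 9 Nedd4-type genes they were 3 above and 6 below, and then 5 and 4. Of 6 Trim genes 3 lay above 0 and 3 below in both fits. Both tested Cbl relatives lay below 0 in both fits, with a median of -0.36 that became -0.09.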

How the data were processed

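RNA sequencing of 4 siNC and 4 siFam129b libraries of C2C12 cells was analysed. The authors deposited FPKM values, 1 for each gene in each library. Genome build mm9 is named, per the submitters' processing notes. Which aligner, counter and annotation they used is not given in the sources used here. Per the labels' protocols, libraries were made from poly(A)-selected RNA. Columns starting with N were matched to siNC and those with F to siFam129b by the titles and replicate numbers. The F columns rest on that letter and number alone, since the descriptions of the siFam129b samples carry W3 in its place, so their replicate numbers are less certain.

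For all genes but 1 of the 16479 with a value, the 8 FPKM values stood in ratios of integers (tolerance 0.001 read). The lowest integers that fit were taken as reads and are lower bounds. Implied length is reads over FPKM and library total. Groups were compared by limma 3.58.1 in R 4.3.3, using log2(FPKM + 1) and a prior variance that follows the mean. The 11025 genes averaging 1 FPKM or more entered, and p-values were Benjamini-Hochberg adjusted over all 11025, with a threshold of 0.05. Fold changes on this scale understate those of low genes. GC content came from GENCODE M21 coding transcripts, found through the gene symbol for 96.9% of the genes tested. The 10 genes, the lists and the tests were chosen with earlier results of these data known. Genes named were the 10, Fam129b, genes marked in each list, marker genes and the nearest profiles, of which 1 is not reported here; Jmjd8 was named for its overlap with Stub1. In all, 21 other fits were made, covering pseudocounts, filters, scaling, weights, reads, replicates and covariates.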

Additional observations from a re-analysis of the deposited data

Results flagged for a closer look

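In 3 of the ligase genes and in Fam129b, siFam129b library 4 lay far from the other libraries of its group, measured as the gap to the nearest library over the whole range of the 4. The share was 0.8888 for Fam129b, 0.8291 for Fbxo31, 0.921 for Nedd4 and 0.9203 for Stub1, each past the 95% critical value of Dixon's test for 4 libraries. Of 22 gene and group combinations examined, 4 were past it, all in siFam129b; about 1 in 20 would pass without any departure, and the 4 share that library. Fam129b was at 128 FPKM there and at 87.0 to 91.6 FPKM in the other siFam129b libraries.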

How the results depend on the processing

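The count of ligase genes called was 0 in the main fit and in all 21 alternatives, with the smallest adjusted p among them between 0.563 and 0.912. The count of genes called over the whole table was 0, and became 1 after quantile normalization, 2 with array weights, 5 with siFam129b library 4 left out and replicates 1 and 2 against 3 and 4 as a covariate, and 10 in replicates 1 and 2 alone; leaving out single libraries gave 0 to 1, the 1 being without siFam129b library 4. The log2 difference of Fam129b was -0.78 and not called over all genes in the main fit. It was called after quantile normalization (-0.86), with array weights (-0.89) and in replicates 1 and 2 alone (-0.82). Leaving out siFam129b library 4 also gave a call, both by itself (-0.91) and with the covariate (-0.90). With single libraries left out the difference ranged from -0.91 to -0.73. The pathway lists had 0 calls, 1 with library 4 out and the covariate (Myog) and 2 in replicates 1 and 2 alone (Myog and Tnni1).

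Signs of small differences turned. With array weights Fbxo32 was 0.01, Fbxo31 -0.02, Cblb 0.07, Nedd4 0.02 and Stub1 -0.01. Without siFam129b library 4 alone, Fbxo32 was 0.03, Traf6 0.01, Cblb 0.08, Nedd4 0.03 and Stub1 -0.01; with the covariate too, Fbxo31 was -0.01, Traf6 0.04, Cblb 0.05, Nedd4 0.01 and Stub1 -0.01. In replicates 1 and 2 alone Fbxo31 was -0.06 and Traf6 0.00, and without siNC replicate 4 Fbxo21 was -0.01. With single libraries left out, Fbxo32 ranged from -0.24 to 0.03, Fbxo21 from -0.01 to 0.12, Traf6 from -0.28 to 0.01, Cblb from -0.18 to 0.08, Fbxo30 from -0.50 to -0.05, Nedd4 from -0.35 to 0.03 and Stub1 from -0.01 to 0.27. Array weights gave library 4 a weight of 0.0499. Equal sums moved the median of all genes to -0.06.

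Same-numbered libraries of the groups had correlated deviations of 0.531, 0.25, 0.0449 and 0.124, so the numbers were not taken as pairs; with the replicate block 0 ligase genes and 0 genes in all were called, and Fam129b was at -0.78. Trim63 and Fbxo40 rest on 23 and 25 reads over all 8 libraries, which limits what can be seen.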
